A study of Mus musculus with 8 samples.

Results

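Tropomyosins are rod-shaped dimers that lie end to end along actin filaments and set which other proteins can bind them. Band 4.1 proteins carry a FERM domain that binds membrane proteins, and the founding member, protein 4.1 of red blood cells, also ties short actin filaments to spectrin. Tropomodulin caps the slow-growing end of such filaments, over the end of the tropomyosin strand. In lens fiber cells a network of spectrin, actin, tropomyosin and tropomodulin lines the plasma membrane and is known for its part in the hexagonal packing of the fibers.

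The probe sets described here are those of the MG-U74Av2 array annotated to 10 genes: the tropomyosins Tpm1, Tpm2, Tpm3 and Tpm4, the tropomodulin gene Tmod1, and the band 4.1 genes Epb41, Epb41l1, Epb41l2, Epb41l3 and Epb41l4a. A probe set is a group of short oligonucleotides for 1 transcript. There were 10 such probe sets, 6 for the 4 tropomyosin genes and 4 for 3 of the band 4.1 genes, out of 12422 probe sets that are no controls. Tmod1, Epb41 and Epb41l3 had no probe set of their own in the annotation used, and were not analysed here. Of the 10 probe sets, 9 passed the level filter, a group mean above a signal of 50 for any of the groups, as did 10078 of all. The family was selected on the strain difference, since Tpm4 and Epb41l4a stand in the study's list of transcripts that differ between the strains. The strain difference of the members is therefore given as a description. Its calls are counted beside those of all probe sets, and again under other settings in a closing section, and support nothing. The KO effect and the interaction of strain and KO took no part in the choice and were tested.

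The arrays held RNA from lenses of 10-day-old mice in 4 groups of 2 arrays: C57BL/6J α3Cx46 KO, C57BL/6J WT, 129SvJae α3Cx46 KO and 129SvJae WT. 129SvJae and C57BL/6J are inbred strains, and KO mice of both strains lack α3Cx46, the fiber cell gap junction subunit encoded by Gja3. Lenses were pooled for every array. Each group has separate samples by its labels, but whether different mice gave the pools is not stated, and the p-values then measure only a spread between samples that may be technical. A whole lens holds epithelial cells and fiber cells, and fewer cells of a type cannot be told apart from less RNA per cell.

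Median signals ran between 85.2 and 114.6 over the 8 arrays, and 7637 to 8602 probe sets lay above a signal of 50. Both split by replicate number. The replicate 1 arrays had medians of 102.0 to 114.6 and 8338 to 8602 probe sets above 50. The replicate 2 arrays had medians of 85.2 to 95.1 and 7637 to 8070. The Gja3 signal was 444.8 to 519.4 in KO lenses and 1100.3 to 3380.8 in WT lenses, a log2 ratio of KO over WT of -2.23 (SE 0.29, limma adjusted p = 0.016), and no array went against its label. The summed signal of 7 lens fiber probe sets, among them the crystallins Cryaa and Crygd, was 191016 to 322219 in C57BL/6J lenses and 163330 to 299558 in 129SvJae lenses, and all 7 exceeded 50 on every array. A communication error of the fluidics station stands in the record of 1 array, replicate 1 of C57BL/6J WT. The replicate 1 arrays of all 4 groups were scanned in 1 session and 3 of the replicate 2 arrays in another, and 129SvJae WT replicate 2 was alone in a session of its own.

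The stretch just upstream of a gene start is shown for Tpm4, which differed most between the strains among the members, and for Tpm1, its sister gene with near equal signals in both. Each is the 250 bases before the start in RefSeq, build GRCm38.p6, which is the genome of C57BL/6J, at chr8:72135038-72135287 on the plus strand for Tpm4 and chr9:67049214-67049463 on the minus strand for Tpm1. Capitals mark GGGCGG, the GC box, and TGACG, the core of cyclic AMP response elements, read on either strand, with no overlap between them.
Tpm4: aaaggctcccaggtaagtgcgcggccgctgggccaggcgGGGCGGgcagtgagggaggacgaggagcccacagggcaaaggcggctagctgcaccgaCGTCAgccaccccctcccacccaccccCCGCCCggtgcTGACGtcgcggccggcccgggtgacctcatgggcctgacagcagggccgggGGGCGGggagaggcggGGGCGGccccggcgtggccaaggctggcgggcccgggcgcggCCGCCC
Tpm1: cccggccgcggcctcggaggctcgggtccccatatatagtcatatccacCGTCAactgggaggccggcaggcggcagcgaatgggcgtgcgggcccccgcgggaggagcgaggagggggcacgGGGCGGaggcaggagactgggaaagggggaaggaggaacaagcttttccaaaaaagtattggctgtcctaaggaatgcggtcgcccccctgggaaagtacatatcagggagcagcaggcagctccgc
The Tpm4 window held 5 GC boxes and 2 TGACG cores at 78.8% G and C, and the Tpm1 window held 1 and 1 at 65.2%. Of all 32841 windows of this length in the same table, 32.7% held a GC box and 17.8% a TGACG core, and their median share of G and C was 52.4%. A CArG box, the site of serum response factor, was found in neither window and in 1.5% of all windows. These matches describe the C57BL/6J reference sequence only. The 129SvJae sequence was not looked at.

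Tpm4 encodes a tropomyosin of the non-muscle cytoskeleton. Its signal (probe set for accession AI835858) was 878.7 and 638.4 in C57BL/6J KO lenses and 584.1 and 584.7 in C57BL/6J WT lenses, against 1920.4 and 2240.7 in 129SvJae KO lenses and 2552.4 and 2562.8 in 129SvJae WT lenses. All 4 C57BL/6J arrays lay below all 4 129SvJae arrays, and the highest C57BL/6J array was a KO array. The means were 671 ± 140 in C57BL/6J and 2319 ± 305 in 129SvJae lenses (SD, n = 4 each). The log2 ratio of C57BL/6J over 129SvJae averaged -1.80 (SE 0.16), 3.48-fold lower in C57BL/6J. It was -1.47 (SE 0.23) between KO lenses and -2.13 (SE 0.23) between WT lenses. Between arrays of the same genotype and replicate number, the C57BL/6J signal was 0.46 and 0.28 times the 129SvJae signal in KO lenses and 0.23 times in both WT pairs.

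A further probe set, for AI843046, is annotated to Tpm4 and to Gm7809, a Tpm4 pseudogene, so that it cannot be assigned to either. It is no member and was chosen after its values were seen. Its signal was 170.7 and 67.8 in C57BL/6J KO, 98.3 and 63.0 in C57BL/6J WT, against 263.5 and 233.8 in 129SvJae KO and 237.8 and 119.0 in 129SvJae WT lenses. The strains overlapped here, with a log2 ratio of C57BL/6J over 129SvJae of -1.15 (SE 0.41, limma adjusted p = 0.475). The C57BL/6J array was the lower in each of the 4 same-number pairs, which was not counted over all probe sets. Across the 8 arrays its log2 signal correlated with that of the Tpm4 probe set at r = 0.774 (Spearman's rho 0.619), given as a description, since the arrays share their strains.

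**Figure D1:**
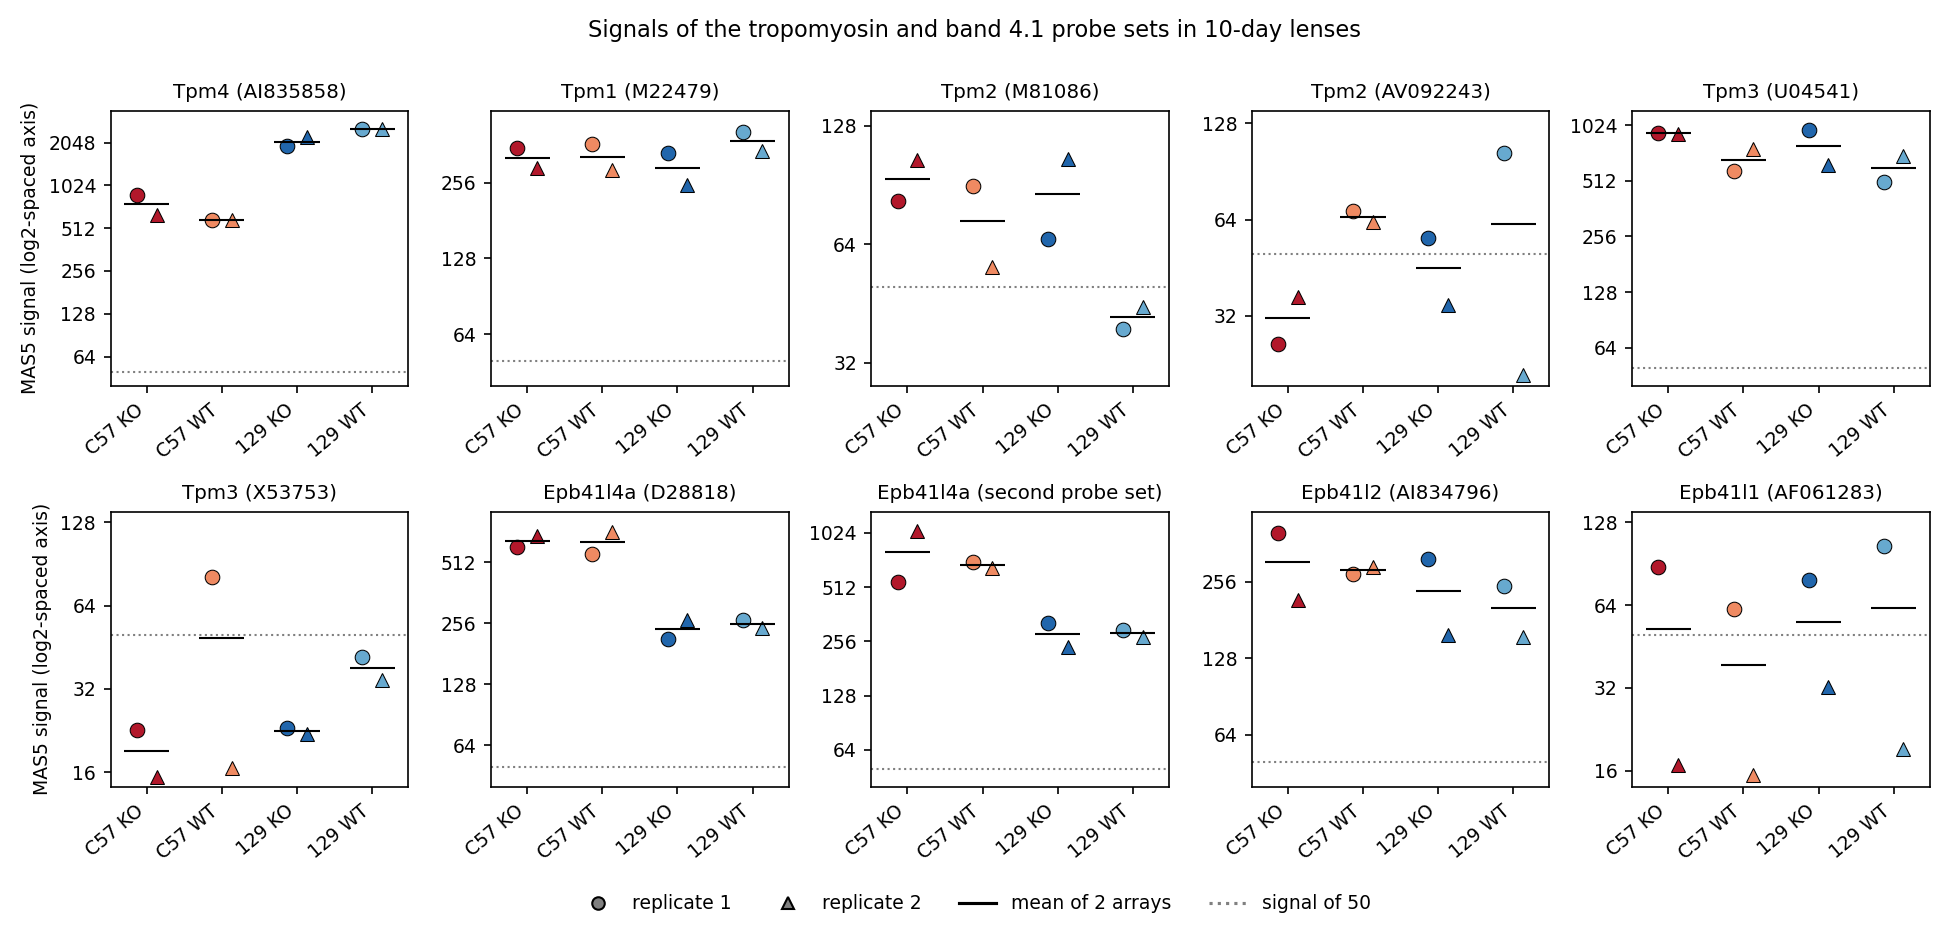
Signals of the 10 tropomyosin and band 4.1 probe sets on every array (vertical axis spaced in log2, with its own range in each panel), with C57BL/6J (C57) left of 129SvJae (129) and KO left of WT. Circles are replicate 1, triangles replicate 2, bars the mean of 2 arrays and the dotted line a signal of 50. Tpm4 and both Epb41l4a probe sets separate the strains. The Tpm3 probe set for X53753, the Tpm2 probe set for AV092243 and that of Epb41l1 lie near or below 50 on many arrays. The Tpm2 probe set for M81086 lies below 50 in 129SvJae WT.

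The other tropomyosins did not separate the strains. Tpm1, which encodes the alpha chain of muscle and several non-muscle forms (M22479), had signals of 351.0 and 291.1 in C57BL/6J KO, 363.5 and 285.9 in C57BL/6J WT, against 335.1 and 249.7 in 129SvJae KO and 404.5 and 340.8 in 129SvJae WT lenses. The 129SvJae arrays spanned the whole C57BL/6J range, and the log2 ratio was -0.03 (SE 0.24, 95% interval -0.54 to 0.48). Tpm3, whose products include the tropomyosins of slow muscle and of the fiber cell membrane skeleton, had 924.9 and 919.8 in C57BL/6J KO, 575.0 and 757.0 in C57BL/6J WT, against 961.0 and 620.5 in 129SvJae KO and 504.0 and 700.3 in 129SvJae WT lenses (U04541). The strains overlapped here too, with a log2 ratio of 0.20 (SE 0.21, 95% interval -0.24 to 0.65).

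Both C57BL/6J KO arrays were above both C57BL/6J WT arrays for Tpm3, and in 129SvJae the highest array was a KO array and the lowest a WT array. The second Tpm3 probe set, for X53753, had 22.8 and 15.4 in C57BL/6J KO, 81.0 and 16.6 in C57BL/6J WT, against 23.0 and 21.9 in 129SvJae KO and 41.8 and 34.5 in 129SvJae WT lenses. It exceeded 50 on 1 array and was not tested. The 2 Tpm3 probe sets thus gave no common account of Tpm3, and only the brighter one is used below.

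Tpm2 encodes the beta chain of muscle, and its 2 probe sets were dim. The first, for M81086, had 82.7 and 104.7 in C57BL/6J KO, 90.3 and 56.1 in C57BL/6J WT, against 66.1 and 105.5 in 129SvJae KO and 39.1 and 44.4 in 129SvJae WT lenses. The second, for AV092243, had 26.1 and 36.8 in C57BL/6J KO, 67.9 and 62.7 in C57BL/6J WT, against 55.9 and 34.7 in 129SvJae KO and 103.1 and 21.0 in 129SvJae WT lenses. The strains overlapped in both, at log2 ratios of C57BL/6J over 129SvJae of 0.47 (SE 0.50) and -0.01 (SE 0.67). The probe sets did not follow each other across the 8 arrays (r = -0.277, Spearman's rho -0.238). Markers of smooth muscle, where Tpm1 and Tpm2 are abundant, summed to 959 to 1618 in C57BL/6J and 1145 to 2198 in 129SvJae lenses over 5 probe sets, of which 1 exceeded 50 on no array. Those of striated muscle summed to 1127 to 1958 and 1152 to 1709 in the same order over 18 probe sets, of which 5 exceeded 50 on no array. Most of the smooth muscle sum came from the actin gene Acta2, at 758.8 to 1988.9 over the 8 arrays. The largest part of the striated muscle sum came from 1 probe set of the actin gene Actc1, at 501.1 to 858.7. The sums thus rest largely on single actin probe sets. The part of muscle cells in the tropomyosin signals was not tested.

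Epb41l4a encodes a band 4.1 protein first cloned as NBL4, with a FERM domain but without the spectrin and actin binding region of protein 4.1. Its signal (probe set for D28818) was 610.3 and 694.0 in C57BL/6J KO lenses and 561.2 and 726.1 in C57BL/6J WT lenses, against 213.3 and 266.5 in 129SvJae KO lenses and 267.2 and 242.1 in 129SvJae WT lenses. The lowest C57BL/6J array was above the highest 129SvJae array. The means were 648 ± 75.6 in C57BL/6J and 247 ± 25.5 in 129SvJae lenses (SD, n = 4 each), and the averaged log2 ratio was 1.39 (SE 0.22), 2.62-fold higher in C57BL/6J. The ratio was 1.45 (SE 0.31) between KO lenses and 1.33 (SE 0.31) between WT lenses. By real-time PCR the study found the same direction for Epb41l4a, at a smaller fold than on its arrays.

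The second Epb41l4a probe set, which carries no accession in the annotation used, had 547.5 and 1049.1 in C57BL/6J KO, 705.1 and 654.9 in C57BL/6J WT, against 324.4 and 239.4 in 129SvJae KO and 297.3 and 271.1 in 129SvJae WT lenses. The strains did not overlap here either, although the C57BL/6J KO arrays lay far apart. The means were 739 ± 217 in C57BL/6J and 283 ± 36.3 in 129SvJae lenses (SD, n = 4 each), and the averaged log2 ratio was 1.35 (SE 0.24), 2.55-fold. Across the 8 arrays the 2 probe sets correlated at r = 0.914 (Spearman's rho 0.714). Both measure the same pools, so they are not independent replicates of the strain difference.

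Epb41l4aos, a transcript named for its place on the opposite strand, neighbours Epb41l4a in RefSeq and was looked at after its values were seen. Its signal was 541.9 and 540.2 in C57BL/6J KO, 842.0 and 639.0 in C57BL/6J WT, against 331.6 and 383.2 in 129SvJae KO and 593.5 and 376.7 in 129SvJae WT lenses. The C57BL/6J array was the higher in all 4 same-number pairs, at 1.63, 1.41, 1.42 and 1.70 times the 129SvJae array, which was not counted over all probe sets. The strains overlapped, and the averaged log2 ratio of 0.62 (SE 0.22) did not pass the test (limma adjusted p = 0.449).

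**Figure D2:**
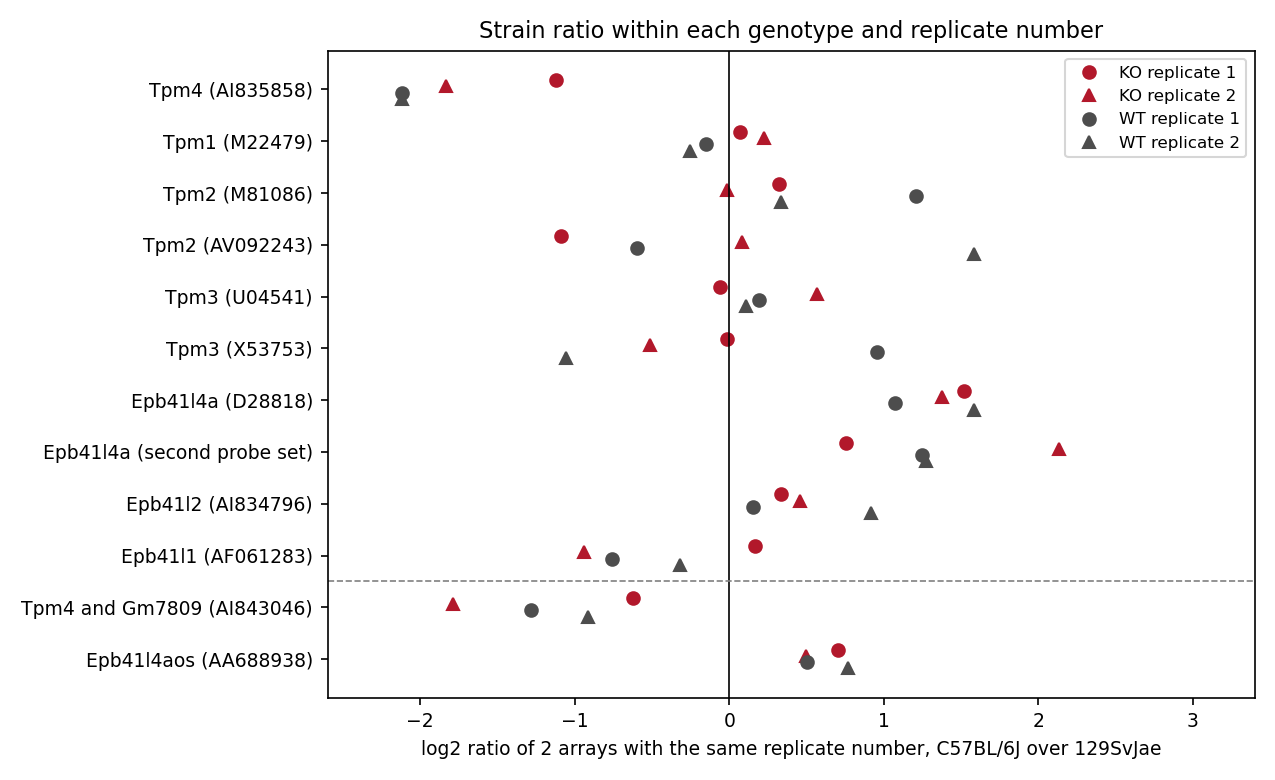
Log2 ratio of C57BL/6J over 129SvJae (horizontal axis) between arrays of the same genotype and replicate number, with KO pairs in red and WT pairs in gray, and with circles for replicate 1 and triangles for replicate 2. The 4 Tpm4 pairs lie left of 0 and the 4 pairs of each Epb41l4a probe set right of it; below the dashed line stand the probe set shared by Tpm4 and Gm7809 and the neighbour Epb41l4aos.

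The other band 4.1 genes overlapped between the strains. Epb41l2 encodes protein 4.1G, the widely expressed form (AI834796), and had 396.4 and 216.2 in C57BL/6J KO, 275.3 and 293.8 in C57BL/6J WT, against 313.6 and 157.3 in 129SvJae KO and 247.1 and 155.8 in 129SvJae WT lenses. The C57BL/6J array was the higher in each same-number pair, at 1.26, 1.37, 1.11 and 1.89 times the 129SvJae array, which was not counted over all probe sets. The averaged log2 ratio was 0.47 (SE 0.32) and was not called (limma adjusted p = 0.883), a description like the other strain differences of the members. Epb41l1 encodes protein 4.1N of neurons (AF061283), and had 88.1 and 16.7 in C57BL/6J KO, 61.9 and 15.4 in C57BL/6J WT, against 79.0 and 32.3 in 129SvJae KO and 105.2 and 19.2 in 129SvJae WT lenses. Its log2 ratio between the strains was -0.47 (SE 0.84).

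The Epb41l1 arrays separated by replicate number, which limma did not call. The replicate 2 signals were all below 50, where signals are near background. The replicate 2 arrays also had the lower median signals over all probe sets (85.2 to 95.1, against 102.0 to 114.6), whose part here was not tested. The replicate 2 arrays had 15.4 to 32.3 and the replicate 1 arrays 61.9 to 105.2, and the log2 difference of replicate 2 minus replicate 1 was -2.04 (SE 0.58, limma adjusted p = 0.20). The Epb41l1 probe set was the only 1 of the 9 tested members whose replicate numbers did not overlap. With 9 members, a count of 1 is near the 8.78% of all tested probe sets that showed this. Of all tested probe sets, 0.00992% were called for the replicate number at an adjusted p under 0.05, and no member was. The replicate 1 arrays also shared a scan session that held no replicate 2 array, so that number and session cannot be told apart there, and the strain and KO values of Epb41l1 are averages over this split.

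Of the 9 tested members, 3 were called for the averaged strain difference (Tpm4 lower, both Epb41l4a probe sets higher in C57BL/6J), where 0.367% of all tested probe sets were called. In KO lenses alone 1 was called, against 0.0893% of all, and in WT lenses alone 1, against 0.0695% of all, Tpm4 in both cases. The same 3 probe sets had strains that did not overlap, against 5.57% of all. Since the family was selected on this difference, these shares say nothing further about it. The call in KO lenses was lost without any 1 of the 4 KO arrays, and the second Epb41l4a probe set kept its averaged call in the absence of only 1 of the 8 arrays, C57BL/6J KO replicate 1, and lost it when scan session was blocked. The first lost its call without either C57BL/6J KO array, C57BL/6J WT replicate 2 or 129SvJae KO replicate 1, with log2 ratios of 1.30 to 1.43. The median log2 ratio was 0.20 over the tested members and 0.01 over all tested probe sets.

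**Figure D3:**
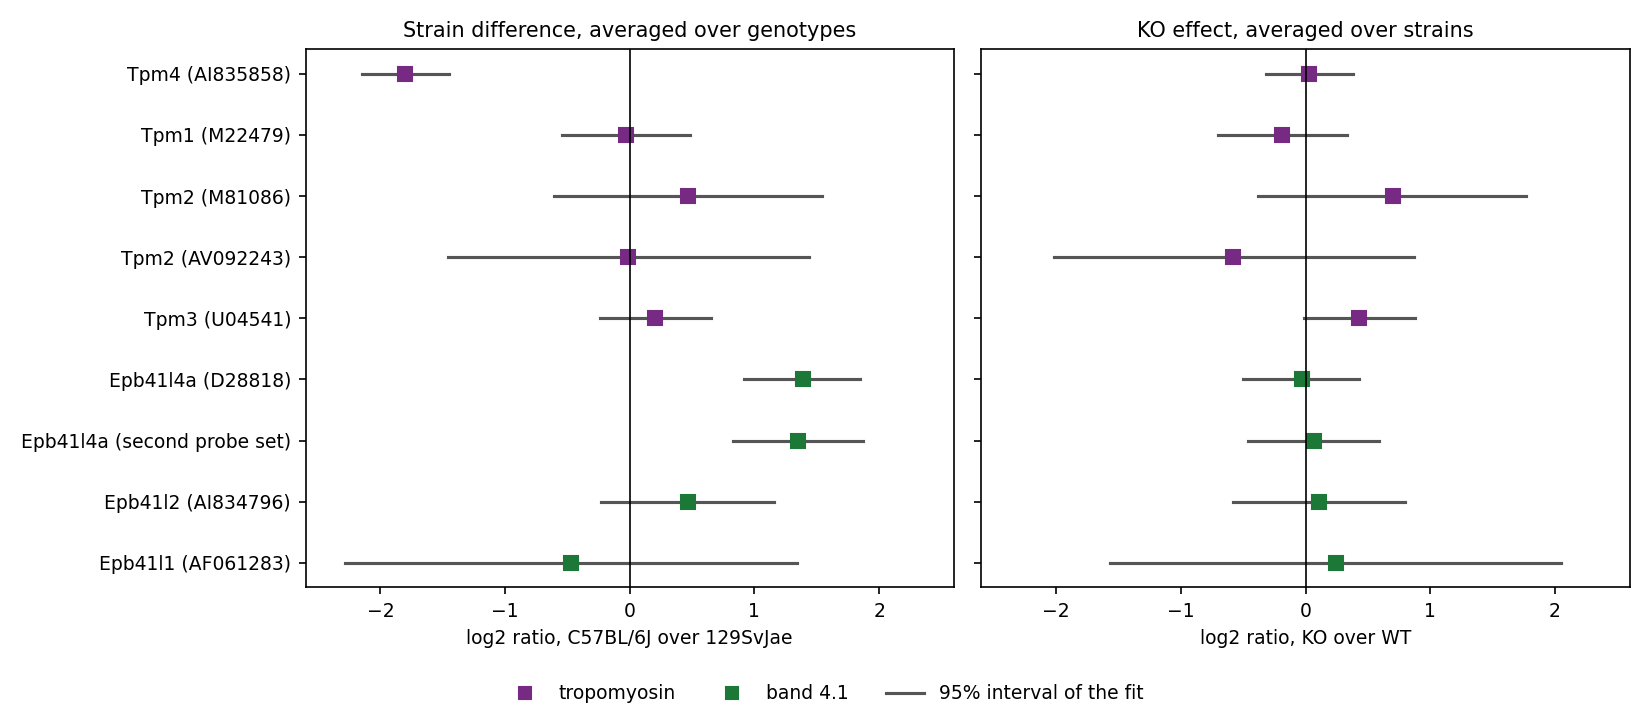
Log2 ratios of the 9 tested probe sets with the 95% interval of the limma fit (bars), as C57BL/6J over 129SvJae averaged over genotypes (left) and KO over WT averaged over strains (right), with tropomyosins in purple and band 4.1 genes in green. In the left panel the intervals of Tpm4 and both Epb41l4a probe sets lie clear of 0, which the choice of the family used; in the right panel every interval spans 0.

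Loss of α3Cx46 changed no member past the threshold. With limma, 0 of the 9 tested members were called for the KO effect averaged over strains, where 0.0198% of all tested probe sets were called, and 0 had an unadjusted p under 0.05, against 3.05% of all. The same counts held in C57BL/6J lenses, where 0.00992% of all were called and 2.31% were under 0.05, and in 129SvJae lenses, where these shares were 0.0% and 3.12%. With 9 members, a count of 0 is near these shares. The methods' t-test also called 0 members for each KO effect, which adds little. Averaged over strains it pools them, so the strain difference enters its spread, and within a strain it compares 2 arrays with 2. No member had KO arrays that were all above or all below the WT arrays, which 2.19% of all tested probe sets had. The median log2 ratio of KO over WT was 0.07 over the tested members and -0.02 over all tested probe sets.

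The Tpm3 signal was 857 ± 158 in KO and 634 ± 115 in WT lenses (SD, n = 4 each). The log2 ratio was 0.43 (SE 0.21, 95% interval -0.01 to 0.88, limma adjusted p = 0.998), and was 0.48 in C57BL/6J and 0.38 in 129SvJae lenses. The dim Tpm2 probe sets gave 0.70 (M81086, SE 0.50, 95% interval -0.38 to 1.77) and -0.58 (AV092243, SE 0.67, 95% interval -2.02 to 0.87). For AV092243 it was 0.00 without 129SvJae WT replicate 1 and -1.15 without 129SvJae WT replicate 2. For Tpm1 it was -0.19 (SE 0.24, 95% interval -0.70 to 0.33).

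Among the band 4.1 genes the log2 ratio of KO over WT was -0.03 (D28818, 95% interval -0.50 to 0.43) and 0.07 (second probe set, 95% interval -0.46 to 0.59) for Epb41l4a. The bounds of both intervals are smaller in size than the strain difference of the same gene, on which the family was selected. Epb41l2 gave 0.11 (95% interval -0.58 to 0.80) and Epb41l1 0.24 (95% interval -1.57 to 2.05), the Epb41l1 interval being too wide to tell a large change from none. All 9 adjusted p-values were 0.998.

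Tpm4 was the member whose KO arrays differed from the WT arrays in both strains, and the directions were opposite. In C57BL/6J both KO arrays (878.7 and 638.4) were above both WT arrays (584.1 and 584.7), a log2 ratio of 0.36 (SE 0.23). In 129SvJae both KO arrays (1920.4 and 2240.7) were below both WT arrays (2552.4 and 2562.8), a log2 ratio of -0.30 (SE 0.23). The interaction, the KO effect in C57BL/6J minus that in 129SvJae, was 0.66 (SE 0.33, 95% interval -0.04 to 1.36) and did not pass the test (limma adjusted p = 1.0, with 0.979 for the replicate number and 0.711 for the scan session as a block). Such a split in opposite directions was shown by 1 of the 9 members and by 3.72% of all tested probe sets. With 9 members, a count of 1 is not far from this share and does not set Tpm4 apart. Averaged over strains the KO effect on Tpm4 was 0.03 (95% interval -0.32 to 0.38). No member was called for the interaction or had an unadjusted p under 0.05, and of all tested probe sets 0.0% were called and 2.11% were under 0.05.

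The probe sets most like Tpm4 across the 8 arrays, by Pearson's r of the log2 signal over 8911 probe sets of other genes, were those of Pgk1, Etf1 and Pdpk1. Pgk1, a glycolytic enzyme, had 2394 ± 277 in C57BL/6J and 5209 ± 476 in 129SvJae lenses (r = 0.972, Spearman's rho 0.952). Etf1, the translation release factor, had 1233 ± 76.1 and 1723 ± 62.7 in the same order (r = 0.971, Spearman's rho 0.905), and the kinase gene Pdpk1 551 ± 67.2 and 771 ± 63.4 (r = 0.958, Spearman's rho 0.905). Like Tpm4, all 3 were higher in 129SvJae with no overlap of the strains, which follows largely from picking them for likeness to Tpm4.

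Most like Epb41l4a (D28818) were Gatad2a, Spg21 and Pla2g12a. Gatad2a, a subunit of the NuRD chromatin complex, had 498 ± 39.7 in C57BL/6J and 226 ± 10.8 in 129SvJae lenses (r = 0.98, Spearman's rho 0.81). Spg21, which encodes maspardin, had 1068 ± 125 and 268 ± 76.5 in the same order (r = 0.979, Spearman's rho 0.905), and Pla2g12a, a secreted phospholipase, 3299 ± 137 and 857 ± 201 (r = 0.978, Spearman's rho 0.833). The Spg21 and Pla2g12a probe sets are of a kind (_f_at) whose oligonucleotides can match several related transcripts. These correlations describe 8 arrays that fall into the same strains.

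Around the members, 4 lists of cytoskeletal genes held 105 tested probe sets, and limma called 0 of them in any of the 7 contrasts, none of which called more than 0.367% of all tested probe sets. At an unadjusted p under 0.05 there were 9 for the averaged strain difference (8.57%, against 6.98% of all) and 3 for the averaged KO effect (2.86%, against 3.05% of all). In the membrane skeleton list 17 of 30 genes had a probe set, and 12 of 27 tested probe sets had a positive log2 ratio of C57BL/6J over 129SvJae (median -0.04). Among FERM domain proteins it was 11 of 23 (median -0.05), with a probe set for 18 of 28 genes. Among actin filament proteins it was 22 of 48 (median -0.07), with a probe set for 40 of 50 genes, of which 35 were tested. Among intermediate filaments it was 3 of 7, with a probe set for 7 of 8 genes. Bfsp2, which encodes a beaded filament protein of the lens, was not among the 7 tested probe sets. By real-time PCR the study found that Bfsp2 transcripts differed between the strains, which the counts here do not cover.

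The largest ratio in the membrane skeleton list was that of Mpp1, which encodes p55, the partner of protein 4.1 and glycophorin C in red blood cells. Mpp1 had 229.3 and 80.4 in C57BL/6J KO, 96.3 and 122.4 in C57BL/6J WT, against 29.6 and 39.9 in 129SvJae KO and 26.2 and 23.9 in 129SvJae WT lenses. The strains did not overlap, but all 4 129SvJae arrays were below 50, where signals are near background, and the log2 ratio of 2.05 (SE 0.56) did not pass the test (limma adjusted p = 0.223). Red blood cell markers summed to 339 to 661 in C57BL/6J and 596 to 842 in 129SvJae lenses over 3 probe sets, and their part in the Mpp1 signal was not tested. By adjusted p, and not by size, the next were the ankyrin gene Ank3 at -0.44 (SE 0.22), β-catenin (Ctnnb1) at -0.25 (SE 0.13) and N-cadherin (Cdh2) at 0.26 (SE 0.16), with adjusted p-values of 0.762, 0.792 and 0.852.

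Among actin filament proteins, 1 probe set of β-actin (Actb) had 1945 ± 321 in C57BL/6J and 1079 ± 413 in 129SvJae lenses (SD, n = 4 each), a log2 ratio of 0.92 (SE 0.24, limma adjusted p = 0.208). The strains did not overlap on this probe set, but on the second Actb probe set they did, at 1955.7 to 3074.2 in C57BL/6J and 765.8 to 2168.8 in 129SvJae lenses (log2 ratio 0.82, SE 0.29, adjusted p = 0.454). Arpc5, a subunit of the actin-nucleating Arp2/3 complex, was at 0.98 (SE 0.31), the actin bundler fascin (Fscn1) at -0.74 (SE 0.24) and the myosin light chain gene Myl12b at -0.61 (SE 0.19), with adjusted p-values of 0.373, 0.376 and 0.337. Of the FERM domain genes the smallest p-values belonged to Nf2 at 0.52 (SE 0.23), Msn at 0.51 (SE 0.32), Fermt3 at 0.69 (SE 0.46) and Myo10 at -1.19 (SE 0.82), and their adjusted p-values ran from 0.698 to 0.883. Of the intermediate filament genes, the fiber cell filament gene Bfsp1 was at 0.22 (SE 0.14) and Vim at 0.72 (SE 0.51). Nes was at -0.60 (SE 0.53) and Des at 0.67 (SE 0.79), with adjusted p-values from 0.856 to 0.95 for all of these. Des had signals of 19.2 to 88.7 in C57BL/6J and 17.7 to 23.5 in 129SvJae lenses. For Myo10 the ranges were 13.8 to 67.1 and 15.3 to 99.7, so both ratios rest in part on signals near background. A second Nes probe set, at 19.7 to 26.7 and 14.1 to 29.4 in the same order, was not tested.

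**Figure D4:**
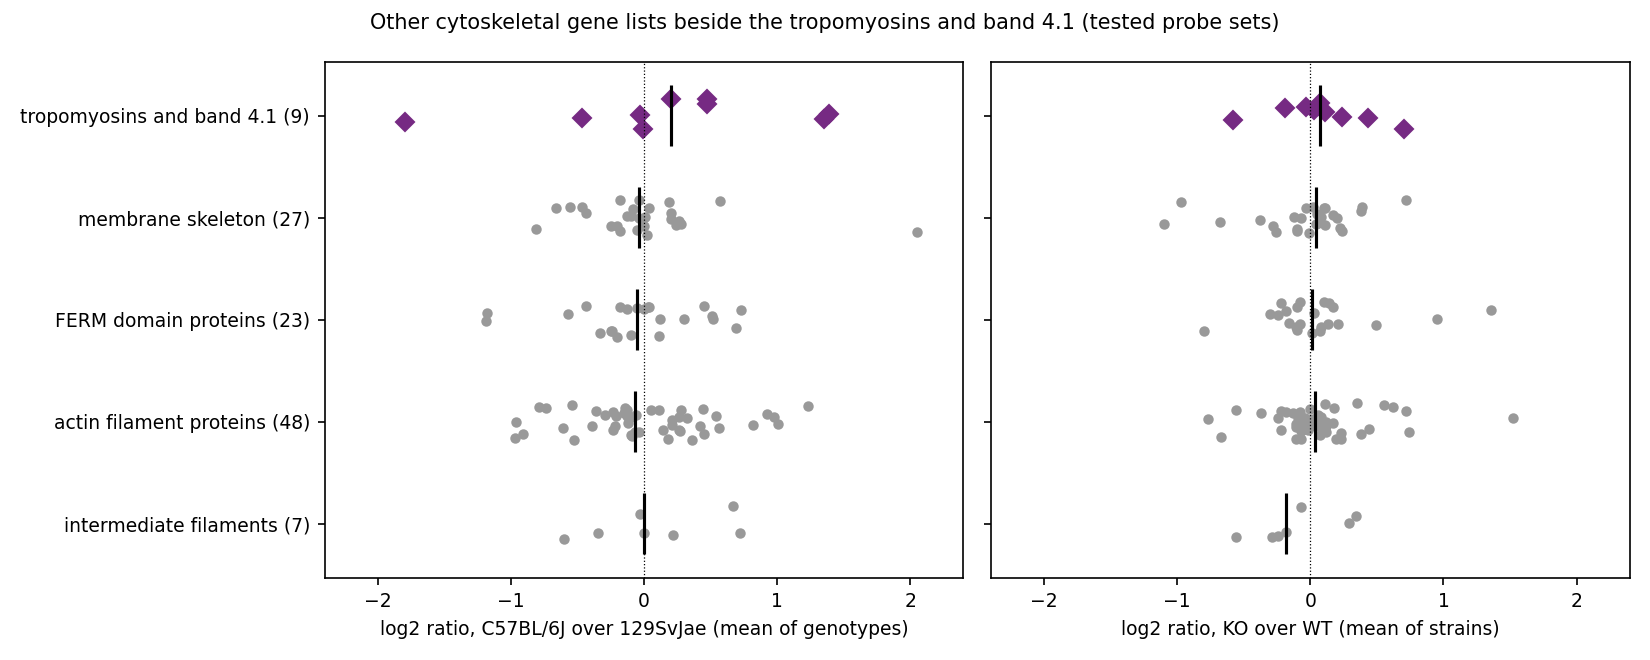
Log2 ratios of C57BL/6J over 129SvJae (left) and of KO over WT (right) for the 9 tested tropomyosin and band 4.1 probe sets (diamonds) and for the probe sets of 4 other cytoskeletal lists (gray circles), with the number tested in brackets and the median as a bar; vertical position within a list carries no value. On the left the outer diamonds are Tpm4 and Epb41l4a and the rightmost gray circle is Mpp1, and the medians of the 4 lists lie between -0.07 and 0.00.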

How the data were processed

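Lens RNA was hybridized by the authors to MG-U74Av2 chips, 1 sample per chip. The deposited intensity values are MAS5 signals that the authors scaled to a mean of 250. For the genome build behind the chip: not given in the sources used here. Of the probe sets, 10833 had 1 symbol, 396 several and 1193 none, through the platform's annotation.

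Signals were rescaled to a trimmed mean of 250 (2% off each end), set to at least 1 and taken to log2. The level filter asked for a group mean over 50 in any group, and what passed entered 1 limma fit (limma 3.58.1, R 4.3.3) of 4 group means with a variance trend (4 residual and 9.17 prior degrees of freedom). P-values were adjusted by Benjamini-Hochberg over all 10078, and a probe set was called at an adjusted p under 0.05. The fit was checked on simulated signals. The number of arrays limits the precision.

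The members and lists were chosen with earlier results of these data known. Every member probe set is named, with the 3 most similar probe sets of Tpm4 and Epb41l4a, and per list the 4 of lowest adjusted p. Same-numbered arrays deviated together (r of 0.13 to 0.206 in all 6 pairs of groups). All replicate 1 arrays shared a scan session, as did the replicate 2 arrays except 129SvJae WT replicate 2, scanned alone. Promoter windows came from RefSeq.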

Additional observations from a re-analysis of the deposited data

How the results depend on the processing

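The number of members called for the averaged strain difference, on which the family was selected, was 3. It was 1 with arrays centred on the median, 0 without a variance trend, and 1 to 2 with each array left out, 1 (Tpm4) without 129SvJae KO replicate 1, C57BL/6J WT replicate 2 or C57BL/6J KO replicate 2. In WT lenses it was 1, against 0 without a variance trend, 0 by the methods' t-test on linear signals, 2 at the methods' thresholds, and 1 with each array left out. In KO lenses it was 1, against 0 with quantile normalization, arrays centred on the median, no level filter or no variance trend, 0 in all 3 settings of the methods' t-test (log2 signals, linear signals, the methods' thresholds), and 0 to 1 with each array left out. For the KO effects and the interaction the count was 0 under every alternative run. With the replicate number as a block (replicate block) the counts were 3, 1 and 1 for the strain differences and 0 for the others, so no call changed, and with the scan session as a block they were 2 (without the second Epb41l4a probe set, adjusted p = 0.0768), 1, 1 and 0. The averaged strain ratio ran from -1.91 to -1.68 for Tpm4, from 1.28 to 1.48 for Epb41l4a (D28818) and from 1.12 to 1.59 (second probe set) over 20 alternatives.

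Values near 0 changed sign. The averaged KO effect on Tpm4 was -0.01 with quantile normalization, that on Epb41l4a 0.00 with the scan session as a block (second probe set) and 0.07 with arrays centred on the median (D28818). With each array left out it ran from -0.09 to 0.14 for Tpm4, from -0.13 to 0.06 (D28818) and from -0.17 to 0.30 (second probe set) for Epb41l4a, from -0.14 to 0.36 for Epb41l2 and from -0.37 to 0.86 for Epb41l1. The averaged strain ratio ran from -0.14 to 0.08 for Tpm1, from -0.58 to 0.56 for Tpm2 (AV092243) and from -1.08 to 0.14 for Epb41l1. A fit of only the groups compared does not apply to the averaged contrasts. The causes were not tested.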

Other observations

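Genes related to the members by family or position were measured as well. Tmod3, the widely expressed tropomodulin, had signals of 449.3 and 372.0 in C57BL/6J KO, 401.7 and 443.5 in C57BL/6J WT, against 289.3 and 416.0 in 129SvJae KO and 414.8 and 354.9 in 129SvJae WT lenses, and both its log2 ratios were small (0.19, SE 0.22, for C57BL/6J over 129SvJae and -0.10, SE 0.22, for KO over WT). Epb41l4b, a paralog of Epb41l4a, had 149 ± 40.7 in C57BL/6J and 186 ± 48.1 in 129SvJae lenses (AI835760, SD, n = 4 each), and 84.4 ± 29.4 and 86.3 ± 31.4 in the same order on its second probe set (AA839765). Rab8a, the neighbour of Tpm4 in RefSeq, chosen after its values were seen, had 385 ± 59.8 in C57BL/6J and 349 ± 68.8 in 129SvJae lenses. None of these genes separated the strains, which 5.57% of all tested probe sets did, so their overlap is what most probe sets showed.

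Among the intermediate filament genes, 2 of 7 tested probe sets had a positive log2 ratio of KO over WT. The median was -0.18, against -0.02 over all tested probe sets. In C57BL/6J lenses it was 1 of 7, with a median of -0.31 against 0.00 over all. In 129SvJae lenses it was 3 of 7, with a median of -0.06, near the -0.05 over all. The 7 include dim probe sets, such as Des at 17.7 to 88.7. None of them was called by limma, against 0.0198% of all for the averaged KO effect, and a count of 0 of 7 is near such a share.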
